A study of Arabidopsis thaliana with 30 samples.

Results

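The comparison described here asked where chromatin closed or opened when the DNA demethylase ROS1 was removed from Arabidopsis thaliana shoots that already lacked the histone acetyltransferase GCN5. It sets 2 peak lists of the gcn5 ros1-4 double mutant against 2 lists of gcn5, out of 30 lists in the series. Open chromatin was mapped by ATAC-seq, in which the transposase Tn5 inserts sequencing adapters into accessible DNA, in nuclei of shoots 2 weeks old. Both groups carry the gcn5 mutation, whose allele the labels do not name, and differ in the ros1-4 allele. The other groups used for reference are shoots of the same age of Col-0 wild type, of the single mutants ros1-4, nrpd1-3, hda6, sdg2-4 and met1-9, of the doubles nrpd1-3 ros1-4, hda6 ros1-4 and sdg2-4 ros1-4, and of the higher-order demethylase mutants rdd-2 and drdd, with Col-0 root at 2 weeks and Col-0 stem at 4 weeks. Each group has 2 libraries, which the labels do not tie to separate cultures or sowings.

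ROS1 removes methylated cytosine by base excision and is best known for keeping methylation away from genes that lie next to transposons. GCN5 is the catalytic subunit of SAGA-type complexes, which acetylate histones and are known for activating transcription. ROS1 is known to reach part of its targets through histone acetylation, laid down there by another acetyltransferase, IDM1.

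Peaks of all 30 lists were merged into 42611 elements, windows that extend 150 bp from a peak summit on each side and that both libraries of 1 group or more covered with a peak. An element was lost where both gcn5 libraries had a peak over it and neither gcn5 ros1-4 library did, and gained in the reverse case. Of the 33072 elements with a peak in both gcn5 libraries, 1633 were lost, which is 4.94%. Of the 7042 elements with a peak in neither gcn5 library, 374 were gained, which is 5.31%. Losses were 4.37 times as many as gains, and 29934 elements had a peak in all 4 libraries. With 2 lists against 2, the smallest p that an exact two-sided permutation test can give is 0.333, so no element has a test of its own, and its call rests on the agreement of 4 lists.

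The gcn5 lists held 30235 and 26195 peaks with median widths of 374 and 453 bp, and the gcn5 ros1-4 lists held 27418 and 30057 peaks with median widths of 355 and 349 bp. The files hold no read counts. The deposited fold and p-value imply a local background at each peak, and its most common level in a library rises with depth. This level was 26 and 32.5 fragments in gcn5 and 16.1 and 25.1 in gcn5 ros1-4. The gcn5 libraries were therefore the deeper ones and had the wider peaks, and the part of this difference in the excess of losses was not tested. Since a call needs all 4 lists to agree, leaving 1 out can only keep or add calls. The number of losses came to 2929 without gcn5 ros1-4 replicate 2, the deeper library of that genotype. The number of gains came to 1325 without gcn5 replicate 1 and to 669 without gcn5 ros1-4 replicate 1. Within gcn5, 93.0% of the elements with a peak in either library had one in both, and within gcn5 ros1-4 it was 92.9%. Genes of green tissue had peaks in all 4 libraries (8 of 8 shoot markers). Of 8 root markers, 5 and 5 had a peak in the gcn5 libraries and 3 and 4 in gcn5 ros1-4, against 2 and 3 in Col-0 shoot and 8 and 8 in Col-0 root. The root genes RHD6, PHT1;1 and PLT2 had no peak in any of the 4 libraries, while FIT, FRO2 and HAK5 had peaks in all 4. Col-0 shoot had peaks at FIT and HAK5 and none at FRO2. RSL4 had a peak in gcn5 only, and PIN2 in both gcn5 libraries and gcn5 ros1-4 replicate 2. Of 6 stem wall markers, 4 had a peak in each of the 4 libraries. In Col-0 shoot it was 2 and 2, and in Col-0 stem 6 and 6. Fewer open cells of a type and less openness per cell cannot be told apart in such whole-shoot libraries.

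Most of what was lost in gcn5 ros1-4 was weak in gcn5. A peak's strength is given here as its percentile of −log10 q within its own list, taking the lower of the 2 libraries. The median percentile was 9.24 for lost elements and 52.4 for the 31439 elements that were not lost, and 74.5% of the lost elements lay below percentile 25. Below that percentile 1217 of 7771 elements were lost, or 15.7%. The share was 2.32% from percentile 25 to 50, 1.42% from 50 to 75 and 1.17% above 75. Gained elements were weaker still in the lists that carried them, with a median percentile of 6.03 and 353 of 374 below percentile 25. The median deposited fold of a lost peak over its background was 2.69 and 2.68 in the gcn5 libraries, against 5.62 and 5.10 for peaks over elements that stayed. A list without a peak gives an upper limit only: the lowest fold listed at background was 1.98 and 1.64 in the gcn5 ros1-4 lists and 1.65 and 1.61 in the gcn5 lists.

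**Figure D1:**
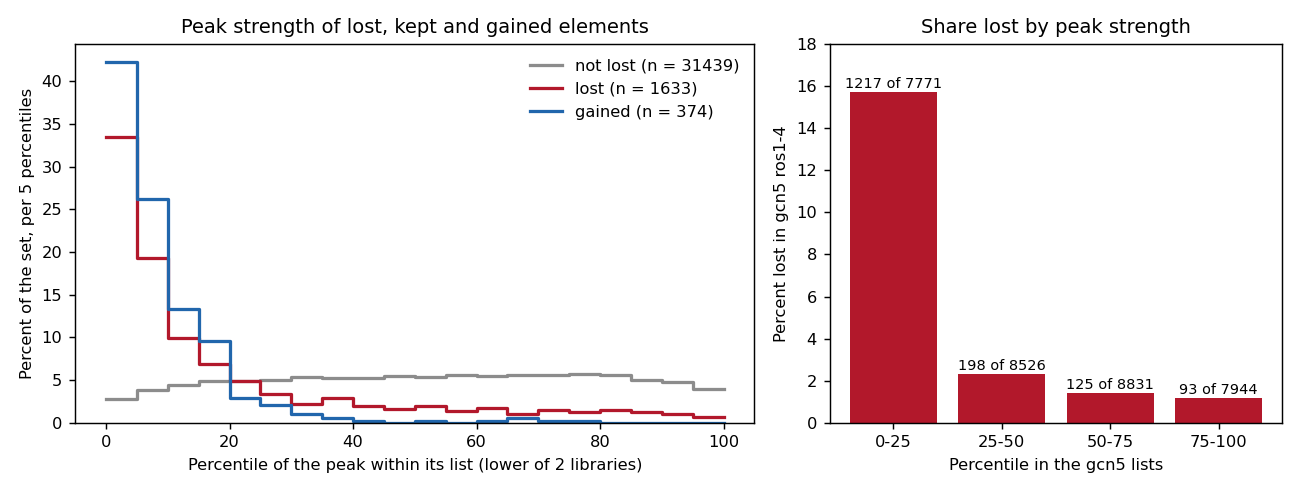
Left, distribution of peak strength (horizontal axis, percentile of −log10 q within the list, lower of 2 libraries; vertical axis, percent of the set per 5 percentiles) for lost, kept and gained elements. Right, percent of the elements of both gcn5 libraries that were lost, by percentile. Losses and gains crowd at the weak end, and the share lost runs from 15.7% in the weakest band to 1.17% in the strongest.

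Losses were of 2 kinds, whole peaks and edges of peaks. At 1031 of the 1633 lost elements (63.1%) no peak of gcn5 ros1-4 overlapped any part of the gcn5 peaks that covered the element. At the other 602, called edges here, a gcn5 peak over the element overlapped a gcn5 ros1-4 peak elsewhere along its length. This held in both gcn5 libraries at 379 of them, in replicate 2 alone at 221 and in replicate 1 alone at 2. The median width of the gcn5 peaks was 536 and 831 bp over edges and 237 and 287 bp over whole-peak losses. Among the 218 lost elements at or above percentile 50, only 38 were whole peaks, and 177 of the other 180 were edges in both gcn5 libraries. For gains, 354 of 374 were whole peaks (94.7%). A fold at an edge is that of the peak's summit, which may lie outside the element, so edges and whole peaks are described separately.

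The strongest whole-peak losses lay beside genes of several kinds. At RMG1 (AT4G11170), an immune receptor gene of the TIR-NBS-LRR class known as a target of ROS1, the element chr4:6810878-6811178 at the gene's end had a fold of 10.1 and 7.43 in gcn5 and no peak in gcn5 ros1-4. It was open in Col-0 as well, with 4.87 and 5.49, and had no peak in either ros1-4 library. Both libraries of hda6 ros1-4, sdg2-4 ros1-4 and rdd-2 did have a peak there, as did 1 of nrpd1-3 ros1-4. Counted over the series, 21 of the 30 libraries had one. The 3 other elements listed with RMG1, from chr4:6817044 to chr4:6818187 at the gene's other end, lay under 1 peak in each of the 4 libraries. The last of them was nearest to AT4G11175. The loss was thus at 1 end of the gene, and the peak at the other end stayed. The element of AT2G33830, a dormancy-associated gene, at chr2:14310275-14310575 had a fold of 10.2 and 7.96 in gcn5 and of 8.59 and 7.34 in Col-0. No peak was listed there in gcn5 ros1-4 or ros1-4. The element near AT2G13985, in a gene-poor stretch at chr2:5872664-5872964, had 11.8 and 8.77 in gcn5 and 8.16 and 8.76 in Col-0, again with none in gcn5 ros1-4 or ros1-4. The same order of presence and absence held at AT2G42455 (9.39 and 8.47 in gcn5), AT3G15605 (11.3 and 8.44), the laccase gene LAC10 (8.35 and 7.66), AT3G05035 (8.21 and 8.95) and the calcium-dependent protein kinase gene CPK4 (6.47 and 6.29). Other doubles with ros1-4 did have peaks at most of these genes. At AT2G33830, AT2G13985 and AT3G05035 both hda6 ros1-4 and both nrpd1-3 ros1-4 libraries had one. So did both hda6 ros1-4 libraries at CPK4, 1 of them at LAC10, and both sdg2-4 ros1-4 libraries at AT3G15605. At AT2G42455 none of these doubles had a peak. The call at AT3G15605 ended where a peak had to cover at least 150 bp of the element.

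Other strong whole-peak losses did not sort in that way. The element at the end of DCL3 (AT3G43920, chr3:15753189-15753489), the Dicer-like nuclease that makes the small RNAs of RNA-directed DNA methylation, had 9.17 and 8.02 in gcn5 and no peak in gcn5 ros1-4. It was open in both Col-0 libraries (4.21 and 5.70) and both ros1-4 libraries (4.51 and 5.02), and 26 of the 30 libraries had a peak there. AT2G24693 at chr2:10505338-10505638 had 16.1 and 13.4 in gcn5, 13.4 and 12.2 in Col-0 and 16.9 and 18.8 in ros1-4. Its peak was missing from the 2 gcn5 ros1-4 libraries and present in the other 28. An element of chromosome 1 without a gene nearby, chr1:10702033-10702333, was open in 26 libraries, gcn5 (10.3 and 8.08) and ros1-4 (6.95 and 8.91) among them. At AT3G44006 the gcn5 folds were 8.87 and 8.68, and of the ros1-4 libraries replicate 1 had a peak of 5.00 and replicate 2 had none. AT4G01760 was the opposite case, with 8.32 and 7.55 in gcn5 and no peak in Col-0 or ros1-4.

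**Figure D2:**
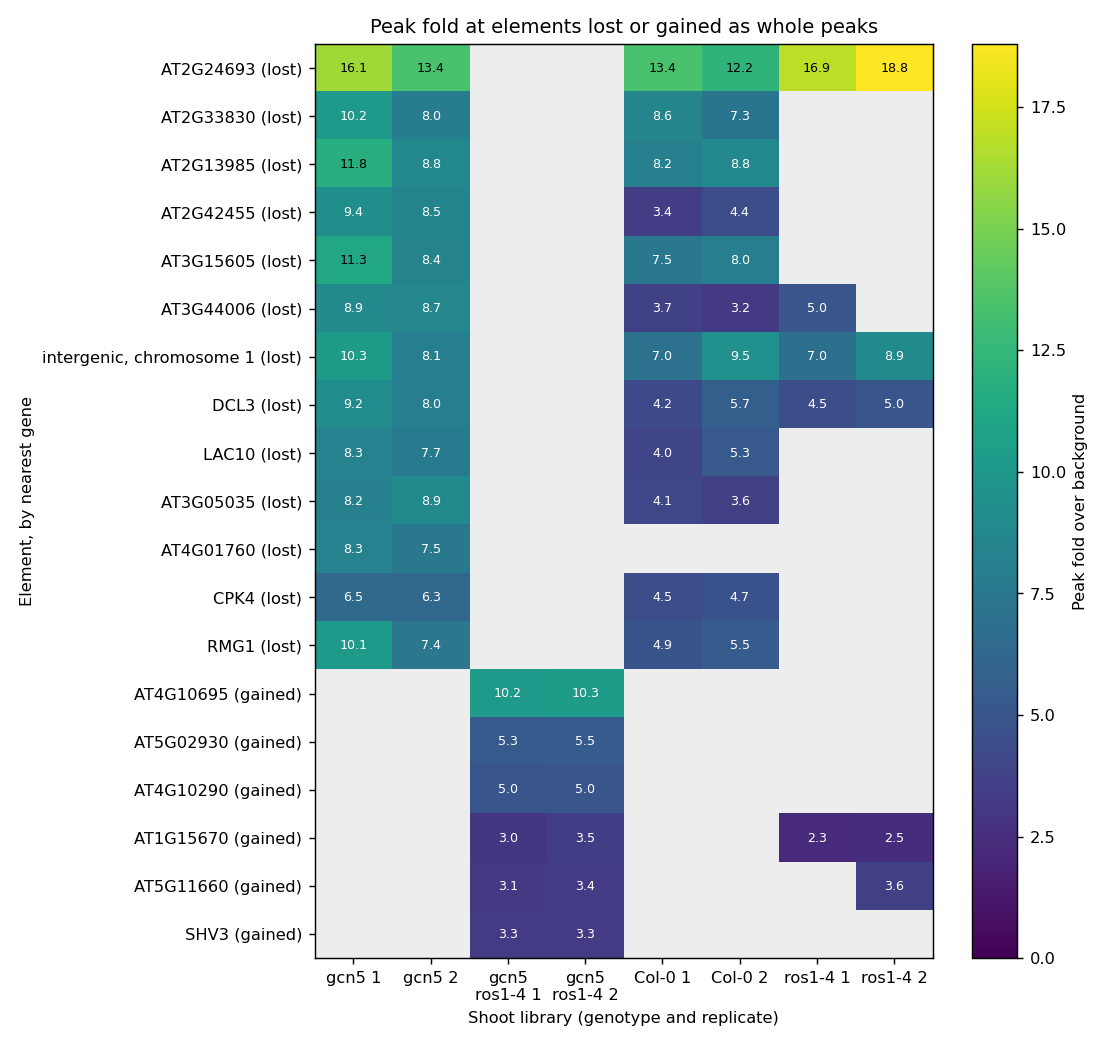
Deposited peak fold over background (colour and number) at elements lost or gained as whole peaks (rows, named by nearest gene), in each library of gcn5, gcn5 ros1-4, Col-0 and ros1-4 shoots (columns). Pale cells had no listed peak. The 13 lost elements, RMG1 among them, were present in both gcn5 libraries by definition, and most were also present in Col-0 and absent from ros1-4.

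In all, 6 lost elements had a peak in every library of the series other than those of gcn5 ros1-4. Besides AT2G24693 these were the whole-peak elements at SAPX, which encodes an ascorbate peroxidase of the chloroplast (6.87 and 5.64 in gcn5), and at chr4:3966392-3966692 in a gene-poor stretch (5.87 and 3.79). The other 3 were edges of wide gcn5 peaks, near AT2G45910 (6.82 and 5.52), the pirin gene PRN (5.96 and 6.43) and AT4G30790 (7.43 and 7.55). At the other extreme, 191 lost elements had a peak in no library beyond those of gcn5, and the median lost element was open in 4 of the 26 other libraries.

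The strongest edge losses belonged to wide gcn5 peaks that a gcn5 ros1-4 peak still overlapped elsewhere. The 12 highest by percentile were all of this kind. Where a peak had to cover at least 150 bp of an element, 6 of the 12 were no longer called, those at ASL15, RPS6, iPGAM2, PLDP1, AT1G80640 and RBL2. Near the LBD-family gene ASL15 (AT2G42440) the peak over chr2:17667284-17667584 had a fold of 18.6 and 17.4 in gcn5 and was 875 and 916 bp wide. Near TPR2, a Topless-related corepressor gene, it had 15.0 and 15.7, and at RPS6, a bacterial resistance gene of the TIR-NBS-LRR class, 13.4 and 13.2. Near the phosphate-induced gene PHI-1 it had 12.5 and 12.5 and a width of 1520 and 1492 bp. Col-0 had no peak over 9 of these 12 elements, both Col-0 libraries had one at PHI-1 (9.92 and 10.8), and 1 Col-0 library had one at TPR2 and at the hydrotropism gene MIZ1. The ros1-4 libraries had none at any of the 12. These elements were therefore mostly flanks into which peaks extended in gcn5 but in none of Col-0, ros1-4 and gcn5 ros1-4.

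Seen over all 1633, lost elements were seldom open in wild-type shoots. Both Col-0 shoot libraries had a peak at 210 of them and neither had one at 1183. Peaks in both libraries of a group were found at 12.9% of lost elements in Col-0 shoot, against 68% of elements not lost. The lowest share was in ros1-4 (5.39% against 74.4%), followed by rdd-2 (7.84% against 74.8%), which lacks ROS1 with its relatives DML2 and DML3, and drdd (10.4% against 76.5%). The highest shares were in Col-0 root (39.6% against 71.0%) and in met1-9 (32.8% against 81.3%), a mutant of the maintenance methyltransferase of CG sites. Since lost peaks were weak and weak peaks are found in fewer libraries, the shares were also taken within strength. At or above percentile 50, however, 180 of the 218 lost elements were edges, with a summit that may lie outside the element. In the upper bands strength is therefore matched for the peak and not for the element. Above percentile 75, both ros1-4 libraries had a peak at 10.8% of the 93 lost elements and at 95.1% of the 7851 not lost. For Col-0 shoot these shares were 19.4% and 95.7%, and for met1-9 they were 41.9% and 97.2%. The order of the groups was not kept in this band: sdg2-4, which has ROS1, was at 10.8% of lost elements like ros1-4, while rdd-2 was at 18.3% and drdd at 23.7%. The met1-9 libraries had an implied background of 18.5 and 13.3 fragments, deeper than Col-0 (6.73 and 8.38) and ros1-4 (7.14 and 5.24), and the part of depth in these shares was not tested. The root share stands beside the root markers given above, of which gcn5 had peaks at 5 of 8, and their part in it was not tested.

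**Figure D3:**
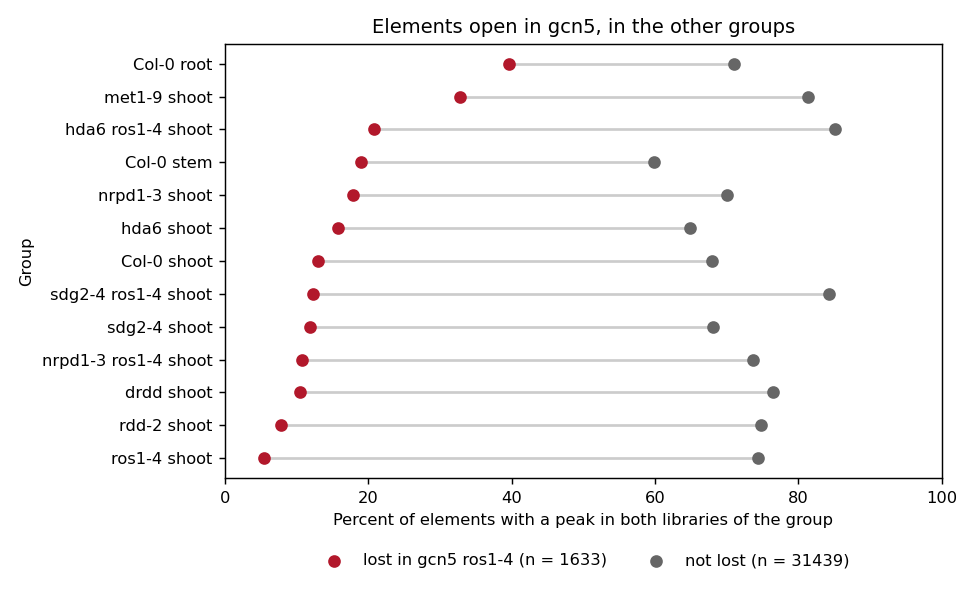
Percent of elements (horizontal axis) with a peak in both libraries of each other group (rows), for the elements lost in gcn5 ros1-4 and those not lost. Lost elements were rarest in ros1-4 shoots, at 5.39%, and most often open in Col-0 root, at 39.6%.

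The 38 strong whole-peak losses, those at or above percentile 50, were mostly open in Col-0 and met1-9 shoots. Both Col-0 shoot libraries had a peak at 31 of them and both met1-9 libraries at 37. Neither ros1-4 library had one at 33, neither rdd-2 library at 29 and neither drdd library at 35. At 27 of the 38 (71.1%) all 6 libraries of these demethylase mutants were without a peak, against 0.912% of the 16557 elements of like strength that were not lost. This share was not particular to strong peaks. For the 993 whole-peak losses below percentile 50 it was 73.7%, against 14.4% of elements not lost there. Both Col-0 shoot libraries had a peak at 9.87% of these 993 and both met1-9 libraries at 30.7%. For the 180 strong edge losses the share without a peak in all 6 was 42.2%, and neither Col-0 library had a peak at 105 of them.

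The other 4 comparisons of the series that remove ROS1 with the same allele share no library with this one, so they give independent measurements of the same elements. In ros1-4 against Col-0, where 3.15% of the elements open in both Col-0 libraries were lost, 128 elements lost in gcn5 ros1-4 were lost too. They were 61.0% (exact 95% interval 54 to 67.6) of the 210 that were open in Col-0 and so could be lost, against 2.34% of the 21381 that were open in Col-0 and not lost in gcn5 ros1-4. They made up 7.84% of all losses in gcn5 ros1-4 and 18.6% of the 687 losses in ros1-4. The share also held within strength: it was 50%, 73%, 66.7% and 50% from the weakest to the strongest of these 4 bands, against 11.0%, 3.75%, 1.78% and 0.666% of elements not lost. The percentile of an edge is that of its whole peak. Intervals cover counting error only, and neighbouring elements can share a peak.

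The other 3 genetic backgrounds gave the same order. In nrpd1-3 ros1-4 against nrpd1-3, which lacks the large subunit of RNA polymerase IV (3.09% of open elements lost), 108 of 290 elements that could be lost were lost, or 37.2% (31.7 to 43.1), against 2.14%. In sdg2-4 ros1-4 against sdg2-4, mutants of a histone methyltransferase (1.36% lost), it was 90 of 193, or 46.6% (39.4 to 53.9), against 0.696%. In hda6 ros1-4 against hda6, mutants of a histone deacetylase (1.26% lost), it was 63 of 257, or 24.5% (19.4 to 30.2), against 0.304%. These shares were not tested against each other.

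**Figure D4:**
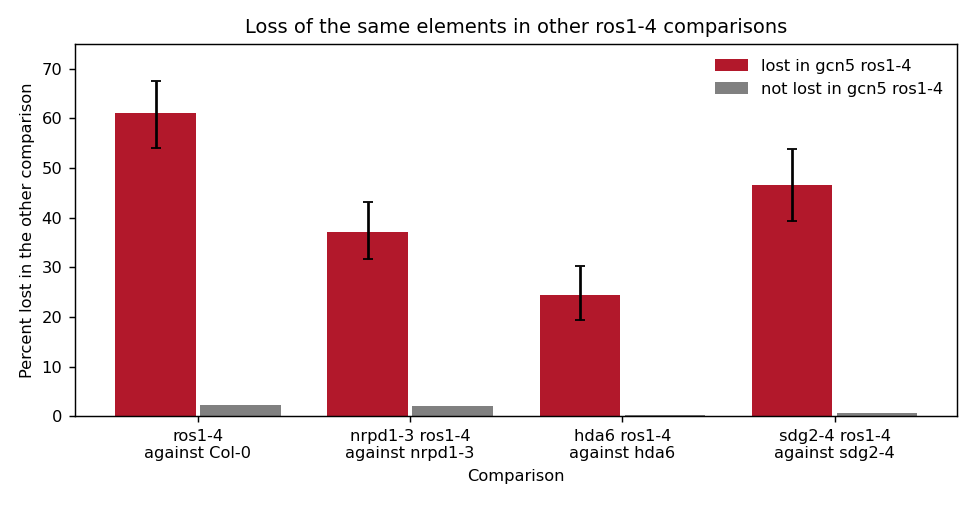
Percent of elements lost in each of 4 other comparisons that remove ROS1 (horizontal axis), among elements open in that comparison's reference and lost or not lost in gcn5 ros1-4; bars on the lost sets are exact 95% binomial intervals. The share among elements lost in gcn5 ros1-4 ran from 24.5% to 61.0%, and among the others from 0.304% to 2.34%.

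Of the 1633 lost elements, 1376 were lost in no other ROS1 comparison, 160 in 2 of the 5 comparisons, 68 in 3, 23 in 4 and 6 in all 5. A loss in another comparison needs a peak in both of its reference libraries. Only 210 of the 1633 had these in Col-0, 290 in nrpd1-3, 257 in hda6 and 193 in sdg2-4. Most of the 1633 could therefore not be called lost in any 1 of these comparisons. The 6 elements lost in every background were mostly of moderate strength. The strongest were chr2:5840373-5840673, in a gene-poor stretch (8.69 and 6.32 in gcn5, and 3.33 to 8.69 over the 10 reference libraries), and the element near AT4G01350 at chr4:559571-559871 (7.81 and 6.07, and 4.2 to 7.81). The others lay near AT2G34540 (3.64 and 2.83) and AT2G24880 (2.04 and 1.82) and at 2 places without a gene nearby, chr2:15190039-15190339 (3.61 and 3.72) and chr2:15372972-15373272 (3.06 and 2.76). No library with the ros1-4 allele had a peak at these 6 by definition, while both met1-9 libraries and both Col-0 root libraries had one at all 6. In rdd-2 both libraries had a peak at chr2:15190039-15190339 and 1 had one at chr2:15372972-15373272. Elements lost in 4 of the 5 included those of CPK4, AT2G42455, AT3G15605, the expansin gene EXPA17, the receptor-like protein gene RLP43 and STL2P.

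Many sites that closed in ros1-4 stayed open in the double mutant. Of the elements open in both Col-0 and both gcn5 libraries and absent from both ros1-4 libraries, 128 were lost in gcn5 ros1-4 and 500 were not. Of those 500, 467 had a peak in both gcn5 ros1-4 libraries. The 2 sets differed in mutants not used to choose them. Both drdd libraries had a peak at 13.3% (7.93 to 20.4) of the 128 and at 56.8% (52.3 to 61.2) of the 500. In rdd-2 the shares were 18% (11.7 to 25.7) and 50.6% (46.1 to 55.1), and in sdg2-4 ros1-4 they were 22.7% (15.7 to 30.9) and 58% (53.5 to 62.4). In nrpd1-3 ros1-4 they were 35.2% (26.9 to 44.1) and 55.2% (50.7 to 59.6). In hda6 ros1-4 the intervals overlapped, with 54.7% (45.7 to 63.5) and 67.4% (63.1 to 71.5). They also overlapped in groups with ROS1, for example in met1-9 (75% and 76.2%) and Col-0 root (68.8% and 65.6%). The gcn5 ros1-4 libraries are deeper than those of ros1-4, so a weak peak is more readily listed there, and the part of depth in the 467 was not tested.

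**Figure D5:**
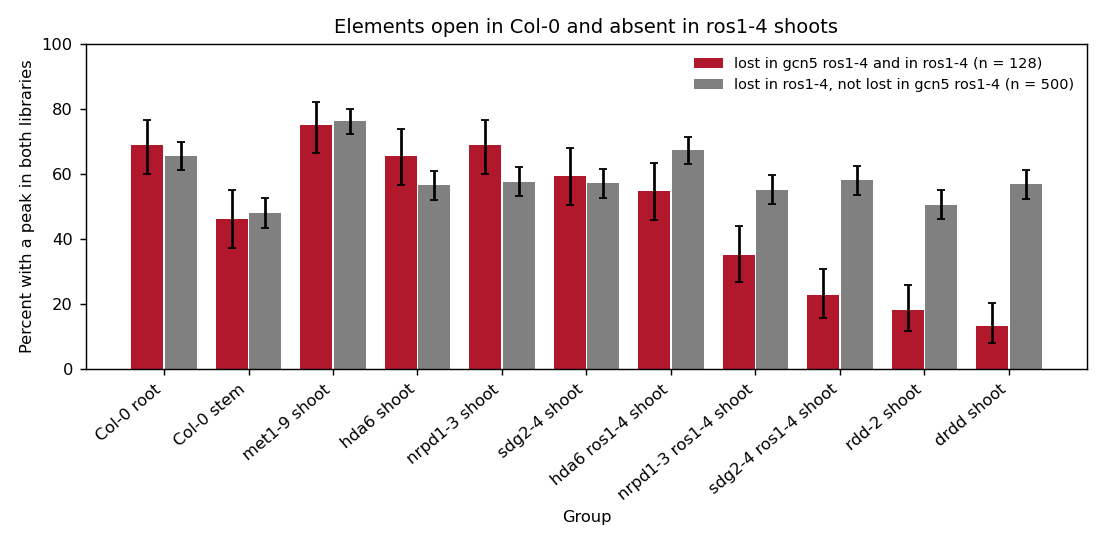
Elements open in both Col-0 and both gcn5 shoot libraries and absent from both ros1-4 libraries, split into the 128 lost and the 500 not lost in gcn5 ros1-4: percent with a peak in both libraries of each other group, with exact 95% binomial intervals. The 2 sets lie farthest apart in sdg2-4 ros1-4, rdd-2 and drdd, where the lost set runs from 13.3% to 22.7% and the other from 50.6% to 58%.

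The strongest of the 128 shared losses were edges for the most part. They included the elements near PHI-1, AT2G05810 (15.1 and 13.4 in gcn5, 7.61 and 8.49 in Col-0), AT1G32460 (11.1 and 10.0, with 6.19 and 2.84 in Col-0), the mitogen-activated protein kinase gene MPK3 (9.03 and 7.49, with 6.10 and 7.21) and the replication helicase gene MCM4 (11.1 and 8.39, with 4.40 and 4.58). The calls at AT1G32460 and MPK3 ended where a peak had to cover at least 150 bp. At STL2P (AT2G01470), a homologue of the yeast SEC12 exchange factor, 2 elements lay at the gene's end. The one at chr2:215275-215575 had a peak of 10.9 and 8.5 in gcn5 and 10.5 and 10.8 in Col-0 and none in gcn5 ros1-4 or ros1-4. The one at chr2:214464-214764 was open in all 30 libraries, with 10.9 and 8.5 in gcn5 and 16.0 and 17.1 in gcn5 ros1-4, so a single wide peak in gcn5 stood against a peak over its nearer part in the double mutant. The receptor-like protein gene RLP9 and the xylem protease gene XCP2 each had a lost element beside one that stayed. There a single wide peak covered both elements in gcn5 replicate 2 only, and in replicate 1 the lost element had a peak of its own (2.26 at RLP9 and 6.04 at XCP2).

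Some genes known for ROS1-dependent methylation had no called change here. No element of the stomatal peptide gene EPF2, of the receptor-like kinase gene CRK40 or of MEE14 was called lost or gained. At EPF2, chr1:12472064-12472364 had a peak in gcn5 replicate 1 alone of the 4 libraries (2.2), so it could not be lost. Near CRK40, chr4:2293222-2293522 had 2.34 and 1.85 in gcn5, and no peak and 2.02 in gcn5 ros1-4. At AT4G18650 the element chr4:10266459-10266759 was open in both Col-0 libraries (7.37 and 7.39) and had no peak in any of the 4 libraries of gcn5 and gcn5 ros1-4, so it could not be lost. The same Col-0 peaks covered the next element, chr4:10266951-10267251, which stayed open. It had 11.6 and 7.72 in gcn5 and 12.4 and 13.7 in gcn5 ros1-4. Of the ros1-4 libraries, replicate 2 had a peak there (3.89) and replicate 1 had none. ROS1 itself had 2 gene-end elements. One was open in all 30 libraries, with a fold of at least 10.9 in each of the 4 libraries. The other, chr2:15314594-15314894, was open in 7 libraries, with 2.19 and no peak in gcn5 and 2.73 and 3.59 in gcn5 ros1-4. An element near GCN5, whose nearest gene was BZIP25 at 42 bp, had 5.01 and 4.32 in gcn5 and 4.30 and 5.35 in gcn5 ros1-4. Peaks at these genes do not check the genotypes, since neither allele need change them.

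Lost elements were found in gene-poor stretches more often than others. The ends of protein-coding genes (the 1000 bp beyond a gene and its outermost 200 bp, at both ends) held 70.1% (67.8 to 72.3) of lost elements and 78% of those not lost. Within strength the difference was smaller among weak peaks, with 70.4% (67.8 to 73) against 72.5% below percentile 25 and 71% (60.6 to 79.9) against 83.2% above percentile 75. Gene-poor stretches, defined as 100 kb windows in which protein-coding genes cover under 25%, held 6.06% (4.95 to 7.33) against 2.19%. In the lowest of the 4 bands of strength the gene-poor shares were 5.92% and 2.87%, and in the highest 5.38% and 2.05%. The gene-poor share was 7.95% (6.38 to 9.78) among whole-peak losses and 2.82% (1.65 to 4.48) among edges. By chromosome the share of elements lost ran from 4.35% on chromosome 1 to 5.80% on chromosome 2.

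Gains in gcn5 ros1-4 lay at gene ends and in gene bodies more often than other elements closed in gcn5. Gene ends held 63.1% (58 to 68) of gained elements against 45.2% of the 6668 elements that could be gained and were not, and gene bodies held 19.5% (15.6 to 23.9) against 7.54%. Gene-poor stretches held 3.74% (2.06 to 6.20) against 24.7%. Many of the 6668 were open in other groups: both met1-9 libraries had a peak at 45.5%, both Col-0 root libraries at 39.3% and both Col-0 shoot libraries at 0.81%. Of the elements open in gcn5 and not lost, gene ends held 78%, gene bodies 7.89% and gene-poor stretches 2.19%. Beside these, gains were less often at gene ends and not rarer in gene-poor stretches. The strongest gain as a whole peak was at AT4G10695, chr4:6594923-6595223, with a fold of 10.2 and 10.3 in gcn5 ros1-4 and no peak in gcn5, Col-0 or ros1-4. AT5G02930 followed with 5.29 and 5.46 and AT4G10290 with 5.05 and 4.96, also without peaks in those 3 genotypes. At AT1G15670 (3.01 and 3.49) both ros1-4 libraries had a peak too, of 2.27 and 2.48. The element of SHV3, a gene of root hair and cell wall growth, had 3.26 and 3.28. The gains at AT4G36000 (6.82 and 6.09), the small GTPase gene RAN-1 (7.46 and 6.96), the cellulose synthase gene CESA6 (5.16 and 4.72), the jasmonate repressor gene JAZ5 (3.74 and 4.07), the kinase gene CIPK9 (3.39 and 3.40) and the calcium pump gene ACA1 (4.21 and 4.13, not called with a cover of 150 bp) were edges of peaks that gcn5 also had. Of these, JAZ5 and AT4G36000 were open in both Col-0 libraries.

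Fewer gains than losses recurred, out of 374 gains and 1633 losses. Of all gains, 4.01% were shared with ros1-4 against Col-0, and of all losses 7.84%. In the other backgrounds the share was higher for gains. It was 13.1% of gains and 6.61% of losses in nrpd1-3, 8.82% and 5.51% in sdg2-4, and 6.95% and 3.86% in hda6. In ros1-4 against Col-0, where 8.49% of the elements that could be gained were gained, 15 elements were gained in both. This number was 120 without gcn5 replicate 1, 25 without gcn5 replicate 2 and 33 without gcn5 ros1-4 replicate 1. They were 4.76% (2.69 to 7.73) of the 315 that could be, against 0.821% of elements not gained in gcn5 ros1-4. The shares were 17.1% (13.0 to 22.0) against 1.81% in the nrpd1-3 background, where 6.89% of such elements were gained. They were 17.6% (12.4 to 23.8) against 5.07% in the sdg2-4 background (15.8% gained) and 14.2% (9.50 to 20.1) against 5.79% in the hda6 background (17.9% gained). Shared with ros1-4 were elements at 4CL8 (3.78 and 4.62), TIFY8 (3.66 and 3.27), the expansin gene EXPA11 (2.87 and 3.00) and GAPB (3.25 and 4.28), a subunit of chloroplast glyceraldehyde phosphate dehydrogenase. No gained element recurred in all 5 comparisons and 3 did in 4, at AT1G79630, AT4G15150 and AT5G44063.

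Lost elements were assigned to 1390 of the 18177 protein-coding genes with an element that could be lost nearby, or 7.65%, and gained ones to 346 of 4082, or 8.48%. At 974 of the 1390 genes another element had peaks in all 4 libraries, so most of these genes kept open chromatin close by. Over 9 gene lists, 9 of 134 genes had a loss (6.72%) the former share being near that of all genes, and 1 of 31 had a gain, against 8.48% of all genes. Without gcn5 ros1-4 replicate 2 the number of list genes with a loss was 22. In the DNA methylation and demethylation list 3 of 19 genes had a loss. They were DCL3, the chromomethylase gene CMT3 (an edge, 6.42 and 5.33 in gcn5, with no peak in Col-0 or ros1-4) and DML3, a ROS1 relative (a whole peak, 5.98 and 5.96, with none in Col-0 or ros1-4). Among genes known to be controlled by DNA methylation, 2 of 6 had one, RMG1 and RLP43 (an edge, 9.76 and 7.40, with 6.98 and 6.23 in Col-0 and none in ros1-4).

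The other lists had few losses or none. The immunity list had 2 of 23, RMG1 and the salicylic acid regulator gene CBP60G (2.89 and 5.07 in gcn5), and the only gain of any list, at the flagellin receptor gene FLS2 (1.68 and 1.87 in gcn5 ros1-4, near the detection limit). Without gcn5 replicate 1, gcn5 replicate 2 or gcn5 ros1-4 replicate 1, the list genes with a gain were 10, 2 and 3. The photosynthesis list had 1 of 24, the antenna protein gene LHCB1.3 (an edge, 11.8 and 10.1), whose close relatives in the genome can share reads and whose call ended where a peak had to cover at least 150 bp. The flowering list had 1 of 13, SPL3 (2.50 and 2.71), and the heat, cold and drought list 1 of 11, RD29A (1.82 and 2.05), whose call ended under the same condition. No loss was called among 13 histone acetylation genes, 18 meristem and leaf development genes and 10 clock genes.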

How the data were processed

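ATAC-seq peak lists of 30 libraries, 2 in each of 15 groups, were used, and the 4 lists of gcn5 and gcn5 ros1-4 shoots carry the comparison. Per the submitters' processing notes, FastQC, BWA, SAMtools, GATK and MACS2 were used with TAIR10; versions and settings are not given in the sources used here. The authors deposited 1 list per library, so replicates were called separately. The deposited score is a multiple of −log10 q, the deposited fold is the ratio of summit pileup to local background as MACS2 writes it, −log10 p and −log10 q were deposited by the authors, and start, end and summit are coordinates deposited on TAIR10. Depth is not in the files and was described by the background that fold and p imply.

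With Python 3.11.15, pandas 2.3.3 and numpy 2.4.6, summits ranked by percentile of −log10 q set windows of 150 bp to either side, of which 48484 did not overlap; those with a peak in both libraries of a group are the elements. A peak covers an element by an overlap of at least 1 bp. Genes within 2000 bp came from the RefSeq table of TAIR10.1, whose nuclear chromosomes match TAIR10, with 27444 protein-coding genes, no strand and no transposons. Intervals are exact Clopper-Pearson at 95% (scipy 1.17.1). Calls were checked on lists with planted losses and gains.

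The members, gene lists and named genes were chosen with earlier results of these data known. Named were the 12 lost and 12 gained elements of highest percentile outside near-identical copies (chromosome 2 from 3.2 to 3.5 Mb and chromosome 3 from 14.1 to 14.3 Mb), the 10 highest shared with ros1-4 in each direction, changed members of the lists, and known targets of ROS1. The 12 strongest whole-peak losses, the elements open in all other libraries and those recurring in 4 or 5 comparisons were added after their values were seen. Names in the peak lists give library numbers 76 to 79 for these 4 libraries, in order gcn5 then gcn5 ros1-4; batches are not stated. No sequence is printed.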

Additional observations from a re-analysis of the deposited data

Results flagged for a closer look

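Some elements changed in opposite directions in gcn5 ros1-4 and in another comparison that removes ROS1; each difference rests on every library of one pair moving one way and every library of the other pair the other way, and was not tested. In each of the 4 comparisons, losses turned into gains at a lower rate than elements absent from the reference in general. In ros1-4 against Col-0, 16 elements lost in gcn5 ros1-4 were gained, the strongest near AT3G52580 (fold 12 and 10.9 in gcn5, 9.99 and 2.81 in ros1-4). They were 1.35% of the 1183 absent from both Col-0 libraries, against 8.49% of all such elements. In the same comparison, 2 gained in gcn5 ros1-4 were lost, near AT1G66090 (2.69 and 2.52 in gcn5 ros1-4, 3.39 and 3.5 in Col-0) and BME3 (2.46 and 1.90, and 2.26 and 2.50). These 2 were 9.52% of the 21 open in both Col-0 libraries, against 3.15% of all such elements.

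In nrpd1-3 ros1-4 against nrpd1-3, 17 elements lost in gcn5 ros1-4 were gained, 1.46% of the 1167 absent from both nrpd1-3 libraries, against 6.89% of all such elements. Those of LHCB1.3 (11.8 and 10.1 in gcn5, 11.1 and 13.9 in nrpd1-3 ros1-4) and MPK3 (9.03 and 7.49, and 8.56 and 8.38) led, both edges in gcn5.

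In hda6 ros1-4 against hda6, 85 elements lost in gcn5 ros1-4 were gained, led by ERD9 (8.11 and 8.77 in gcn5, 6.39 and 6.74 in hda6 ros1-4). There, 1 gained in gcn5 ros1-4 was lost, near AT1G20370 (3.78 and 4.2 in gcn5 ros1-4, 3.36 and 3.39 in hda6). That is 1.35% of the 74 open in both hda6 libraries, against 1.26% of all such elements. In sdg2-4 ros1-4 against sdg2-4, 53 elements lost in gcn5 ros1-4 were gained, with MPK3 first (9.85 and 3.00 in sdg2-4 ros1-4). The 85 and 53 were 7.38% and 4.3% of those absent from both reference libraries, against 17.9% and 15.8% of all such elements in these last 2 comparisons, whose single and double mutants also differ in library number range.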

How the results depend on the processing

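No paired analysis was possible because the calls come from presence in 4 lists and no test. Losses numbered 1633. Requiring a fold of at least 2 times the detection limit left 319 losses and 35 gains; requiring no peak within 300 bp left 1051 losses. Among alternatives chosen after seeing the data, whole peaks left 1031 losses and summits inside the element 896. Under these 4 settings in turn the gene-poor share of losses was 7.52%, 7.90%, 7.95% and 7.81%, and the number of list genes with a loss was 4, 4 and 3 under the last 3. The fold requirement also gave a gene-poor share of 11.4% and a gene-end share of 77.1% of gains, 21 losses and 0 gains shared with ros1-4, and 0 list genes with a gain. Losses shared with ros1-4 were 84 as whole peaks and 71 by summits. Lists of equal length gave a gene-end share of losses of 67.7%. They gave 3 list genes with a gain, as did a cover of 150 bp.

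Leaving out 1 library at a time gave 1842 to 2929 losses and 395 to 1325 gains, 4.88% to 7.27% of losses in gene-poor stretches and 68.6% to 71.9% at gene ends, 3.14% to 3.8% and 63% to 68.4% of gains, 135 to 154 losses and 15 to 120 gains shared with ros1-4, and 10 to 22 list genes with a loss and 1 to 10 with a gain. A call needs all 4 lists to agree, so leaving 1 out can only keep or add calls, and these counts are no spread around the main values. Why they rose more without some libraries than without others was not tested. No named element changed direction under any alternative. Only alternatives that redefine the elements could have reversed one, since the others filter peaks or calls or relax the rule. Of 70 named losses, 34 were still called as whole peaks and 37 with no peak within 300 bp, and 56 passed the fold requirement; of 24 named gains these were 18, 18 and 11. Summits inside the element left 30 losses and 17 gains, elements from the 4 libraries 44 and 18, and a cover of 150 bp 59 and 23. Including near-identical copies would add AT2G07806 to the named gains. The lists hold no reads, so openness below the detection limit was not detectable.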

Other observations

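Lost elements that were closed in wild-type shoots were open in both met1-9 and both stem libraries less often than elements that stayed. In both root libraries they were open about as often. Of the 1183 lost elements with no peak in either Col-0 shoot library, both Col-0 root libraries had a peak at 32.5%, both stem libraries at 12.3% and both met1-9 libraries at 25%. For the 5941 elements also absent from Col-0 shoot but not lost, the shares were 33.7%, 15.7% and 43%. At or above percentile 50 the shares were 41.7%, 18.5% and 27.8% of 108 lost elements, against 40.2%, 31.2% and 52.7% of 465 that were not lost.

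In the mitochondrial insertion of chromosome 2, where reads can come from near-identical copies, 1 element was gained, at AT2G07806 (chr2:3484543-3484843). Its fold was 2.97 and 3.5 in gcn5 ros1-4, and 14 of the 30 libraries had a peak there.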
